A study of Mus musculus with 18 samples.

Results

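Zinc finger genes named Zfp with a number were followed across mouse hearts that carried 1 of 3 viral vectors. The members are the genes of the deposited count table whose symbol is Zfp, a number and at most 1 letter, with a mean raw count of 50 or more over the hearts. The rule found 176 members among 354 genes of that name form and 23457 gene entries in all. Members were thus chosen by their symbol and their mean count in the libraries compared here, so their levels are a description. Nearest the limit on the inside were Zfp213, Zfp28 and Zfp931, with mean counts of 50.2, 51.2 and 52.2, and just outside it were Zfp560, Zfp420 and Zfp946, with 49.4, 49.4 and 49.2. All 176 members passed the filter on low counts and were tested, and the lowest count of any member in any heart was 23. Among the 178 genes below the limit, 131 were tested.

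Hearts came from male C57BL/6 mice. The mice were injected into the tail vein at 8 weeks of age with a recombinant adeno-associated virus of serotype 6 (rAAV6), and hearts were taken 9 weeks later, at 17 weeks. Of 18 hearts, 6 had received rAAV6-PLCb1b, 6 had received rAAV6-PLCb1a and 6 had received rAAV6-blank. PLCb1b and PLCb1a are splice variants of phospholipase C beta 1, an enzyme downstream of Gq-coupled receptors, each delivered with a FLAG tag, and the blank virus holds a promoter without a protein product. All groups thus carried virus, and no uninjected heart was compared. The labels name both ventricles as the tissue, whereas the methods of the study name the left ventricle. Each heart is a separate animal, named here by the number in its label.

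Most Zfp proteins hold C2H2 zinc fingers, short folds in which a pair of cysteines and a pair of histidines grip a zinc ion and which, in tandem arrays, read DNA sequence. Many also carry a KRAB domain, which recruits the co-repressor Trim28 and, through it, the histone methyltransferase Setdb1, and these proteins are best known for silencing retrotransposons and for holding imprints. A few members act elsewhere: Zfp36 (tristetraprolin) has CCCH fingers that bind AU-rich messenger RNA and speed its decay, and Zfp598 is a ubiquitin ligase that senses collided ribosomes.

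The protein class of each member was read by pattern from translated reference transcripts. A KRAB core was found in 84 members, 3 of which also had a SCAN core, another 5 had a SCAN core alone, and 83 had C2H2 fingers with neither. Zfp36 was the CCCH protein, and Zfp259, Zfp330 and Zfp839 had no finger match. At least 1 C2H2 finger was found in 171 members, and the total was 1867 fingers. Members with a KRAB core had a median of 12 fingers and the others a median of 7, with the most, 36, in Zfp142. The KRAB core is printed for 5 members that return in the comparisons or have a known target, as 30 coding bases read 5′ to 3′ on the coding strand (GENCODE vM21, GRCm38). Capitals mark the 18 bases that are the same in all 5.
Zfp445 (chr9:122856718-122856747, minus strand): cTtTAtcGgGAtGTtATcCTGGAgAatTAt
Zfp568 (chr7:29997828-29997857, plus strand): tTgTAccGaGAtGTgATgCTGGAgAccTAc
Zfp790 (chr7:29824905-29824934, plus strand): tTaTAccGaGAtGTcATgCTGGAgAacTAc
Zfp810 (chr9:22284036-22284065, minus strand): cTgTAcaGgGAcGTgATgCTGGAgActTAc
Zfp809 (chr9:22235098-22235127, plus strand): cTgTAcaGgGAtGTgATgCTGGAaAccTAc
The encoded stretch matched all 10 positions of the KRAB pattern in Zfp568, Zfp790, Zfp810 and Zfp809, and 9 in Zfp445. KRAB genes form a family of paralogs, and how the counting assigned reads that match more than 1 of them was not tested, so values of KRAB members are uncertain to that extent.

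Zfp827 and Zfp687 have no KRAB core and 9 C2H2 fingers each. A finger of each is shown because these genes had the lowest p among members that were higher with both PLC groups set against blank. Capitals mark the codons of the cysteines and histidines that hold zinc (GRCm38, coding strand).
Zfp827 (chr8:79070403-79070465, plus strand): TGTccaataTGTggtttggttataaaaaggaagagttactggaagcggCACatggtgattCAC
Zfp687 (chr3:95010157-95010219, minus strand): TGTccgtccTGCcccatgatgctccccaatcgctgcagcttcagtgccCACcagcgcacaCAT
In C2H2 fingers that bind DNA, the stretch between the second cysteine and the first histidine holds the residues that meet it. These fingers were found by pattern, and whether they bind DNA was not tested.

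Libraries were read from RNA depleted of ribosomal RNA, with the strand kept. Total counts per heart ranged from 13246339 to 24155465, of which 67.1 to 71.9% were mitochondrial, leaving 3908354 to 7591558 counts on nuclear genes in each library. Counts were scaled by TMM to CPM (counts scaled to a common library size) and tested with edgeR's quasi-likelihood test on 12281 genes, and a gene was called at a Benjamini-Hochberg FDR below 0.1. Plcb1 was higher in all hearts of both PLC groups than in any blank heart (log2 fold change 2.90 for PLCb1b and 1.82 for PLCb1a), and 10 cardiomyocyte markers summed to 57924 to 63592 CPM in every heart, with 4 tested atrial markers at 24.2 to 61.0 CPM in sum. In bulk tissue, fewer cells of a type and less RNA per cell cannot be told apart.

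Most members lay in a narrow range of level, apart from a few genes. The limit on mean count leaves out genes of low count, so part of that narrowness comes from the choice of members. Compared per length, the median member had 2.13 FPKM over the 18 hearts, beside a median of 2.88 FPKM for all genes tested. All genes tested include genes below the count limit. Members were not compared in FPKM with genes of similar count, so how low they lie among such genes was not tested. There were 15 members under 1 FPKM, 138 from 1 to 5 FPKM and 23 at 5 FPKM or more. Zfp106, an RNA-binding protein needed in skeletal muscle and motor neurons, stood apart at 68.0 FPKM, 3.72 times the next member, and took 23.2% of all member counts. Next came Zfp207, a protein that binds microtubules and Bub3 at mitosis, at 18.3 FPKM. Zfp91, a ubiquitin ligase, was at 15.5 FPKM, but 42.3% of its exon bases lie in another gene entry on the same strand (U05342), so its value is uncertain. The other members of the top 10 were Zfp644 (9.61 FPKM), Zfp445 (9.50), Zfp672 (8.59), Zfp655 (7.83), Zfp386 (7.19), Zfp260 (6.70) and Zfp62 (6.65). Their neighbours in this order lie within their spread of each other in several places. Zfp644 and Zfp445, for example, had 9.93 ± 0.351 and 9.57 ± 0.962 FPKM in blank hearts (SD, n = 6). KRAB members had a median of 1.93 FPKM and the others 2.38.

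**Figure D1:**
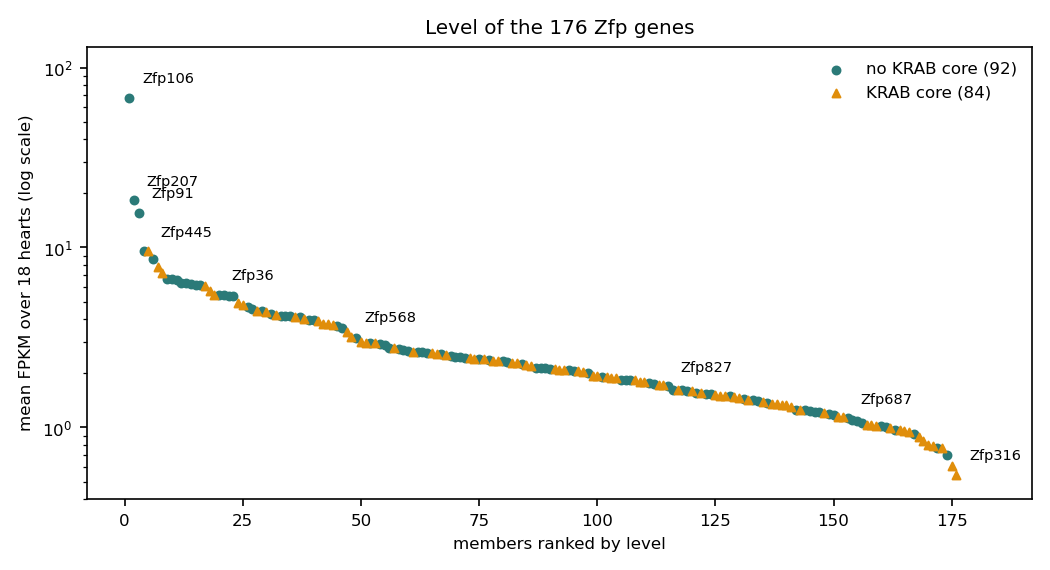
Mean FPKM over 18 hearts (log scale) of the 176 members, ranked from highest to lowest, with triangles for the 84 members with a KRAB core and circles for the 92 without. Zfp106 sits alone at 68.0 FPKM, and 138 members lie between 1 and 5 FPKM.

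The members varied from heart to heart about as much as genes of similar count. The coefficient of variation of CPM within groups had a median of 10.1% over the members and 11% over all genes tested. All genes tested include genes of lower count. Within the members' interquartile range of mean count, the median was 10.25% for members and 10.35% for the 3322 genes tested there. Of the members, 87 were below 10%. Zfp266 (3.91%), Zfp871 (4.30%) and Zfp91 (4.50%) varied least. Only 3 members exceeded 20%, namely Zfp366 (30.9%), Zfp36 (30.8%) and Zfp449 (21.2%), followed by Zfp316 (19.4%) and Zfp74 (18.9%). Member counts as a sum made up 0.729% ± 0.021 of nuclear counts in blank hearts, 0.736% ± 0.0099 in PLCb1a hearts and 0.723% ± 0.0062 in PLCb1b hearts (SD, n = 6), and the ranges of the 3 groups overlapped.

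The comparison of PLCb1b with blank hearts asks which members differ with the variant at the centre of the study. Of the 176 members, 0 were called in edgeR's quasi-likelihood test, and 0 in any alternative tried, where 12 of all 12281 genes were (0.0977%). At an unadjusted p below 0.05 there were 23 members, 10 higher and 13 lower in PLCb1b hearts. That is 13.1% of members, beside 7.41% of all genes tested (3.94% higher and 3.47% lower). Among genes with a mean count of 50 or more it was 7.91%. The 23 members became 18 with DESeq2, 16 without blank heart 30 and 27 without blank heart 32. The share of all genes under those alternatives is not given here. The median log2 fold change was 0.0029 for the members and -0.00089 for all genes, and 172 of 176 members stayed within 1.2-fold. The 3 members of lowest p in each direction were Zfp827, Zfp687 and Zfp719 on the higher side and Zfp568, Zfp790 and Zfp84 on the lower side. The groups did not overlap for 2 members, Zfp687 and Zfp84, where 0.48% of all genes did not overlap.

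Zfp687, a partner of Zfp592 and Zmynd8 in a chromatin complex, had 2.99, 3.99 and 4.35 CPM as the lowest, median and highest blank heart and 4.59, 4.76 and 6.03 CPM in PLCb1b hearts. All 6 PLCb1b hearts were above every blank heart, and the log2 fold change was 0.36 (standard error, SE, 0.11; edgeR quasi-likelihood FDR 0.292). Its partner Zfp592 had a log2 fold change of -0.05 (SE 0.06). Zfp84, a KRAB protein, ran from 10.1 to 12.2 CPM in blank hearts (median 10.7) and from 8.46 to 10.1 CPM in PLCb1b hearts (median 9.43). All 6 PLCb1b hearts were below every blank heart, by a narrow gap, and the log2 fold change was -0.22 (SE 0.08, FDR 0.450 from edgeR).

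Zfp568, a KRAB protein that silences a placental transcript of Igf2, had 19.4, 20.8 and 24.5 CPM as lowest, median and highest blank heart. In PLCb1b hearts the same values were 16.5, 18 and 20.7 CPM. Of the 6 PLCb1b hearts, 5 lay below every blank heart, with a log2 fold change of -0.23 (SE 0.06, FDR 0.196 from edgeR), the lowest FDR of any member in this comparison. Zfp790 ran from 7.06 to 9.29 CPM in blank hearts (median 7.71) and from 5.54 to 7.22 CPM in PLCb1b hearts (median 6.48), with 5 of 6 below every blank heart. Its log2 fold change was -0.31 (SE 0.09, FDR 0.225 from edgeR). Zfp719 had medians of 3.64 and 4.43 CPM in blank and PLCb1b hearts, overlapping ranges and a log2 fold change of 0.28 (SE 0.10, FDR 0.519 from edgeR).

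PLCb1a against blank hearts asks the same of the other splice variant. A single member, Zfp827, was called in edgeR's quasi-likelihood test, where 17 of all genes tested were (0.138%). At an unadjusted p below 0.05 there were 21 members, 17 higher and 4 lower. That is 11.9% of members beside 8.58% of all genes (4.42% higher and 4.16% lower). Among genes with a mean count of 50 or more it was 9.32%. The 21 members became 13 with DESeq2 and 11 to 13 with limma on FPKM. With each heart left out they ran from 16 to 24. The share of all genes under those alternatives is not given here. The median log2 fold change of the members was 0.018, beside -0.0018 for all genes tested. There were 171 members within 1.2-fold. The groups did not overlap for 2 members, Zfp810 (higher) and Zfp955a (lower), beside 0.594% of all genes.

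Zfp827, which recruits the NuRD chromatin complex and binds telomeres, lies on chromosome 8 (chr8:79028437-79193766, plus strand, mm10) with 15 exons. Its lowest, median and highest values were 9.30, 9.81 and 11.8 CPM in blank hearts, 10.8, 13 and 13.4 CPM in PLCb1a hearts and 11, 12 and 12.6 CPM in PLCb1b hearts. In each PLC group, 4 of 6 hearts were above every blank heart, and blank heart 26 alone reached into their range. Per length the means were 1.51 ± 0.144 FPKM in blank, 1.83 ± 0.156 in PLCb1a and 1.74 ± 0.113 in PLCb1b hearts (SD, n = 6). The log2 fold change was 0.31 in PLCb1a hearts (SE 0.07, FDR 0.0734 from edgeR) and 0.25 in PLCb1b hearts (SE 0.07, FDR 0.254 from edgeR). The difference between PLCb1b and PLCb1a was -0.06 (SE 0.07). With both PLC groups set against blank, Zfp827 was again the only member called, at 0.28 (SE 0.06, FDR 0.0486 from edgeR), where 0.326% of all genes were called. In that comparison 23 members had an unadjusted p below 0.05, or 13.1% beside 9.25% of all genes. Among genes with a mean count of 50 or more it was 9.97%. Those 23 became 18 with DESeq2, 17 without blank heart 30 and 26 without PLCb1b heart 17.

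The call of Zfp827 in PLCb1a hearts rests on the way the spread was estimated. It used edgeR's robust estimation, and without it the FDR was 0.108. It was also lost in edgeR fits without any 1 of blank hearts 30, 32, 33, 34 and 36 or PLCb1a hearts 7, 11, 13 and 14 (highest FDR 0.204), and kept in the other 9 of 18 such fits. Against both PLC groups it was lost without blank heart 30, 33, 34 or 36 (highest FDR 0.187).

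**Figure D2:**
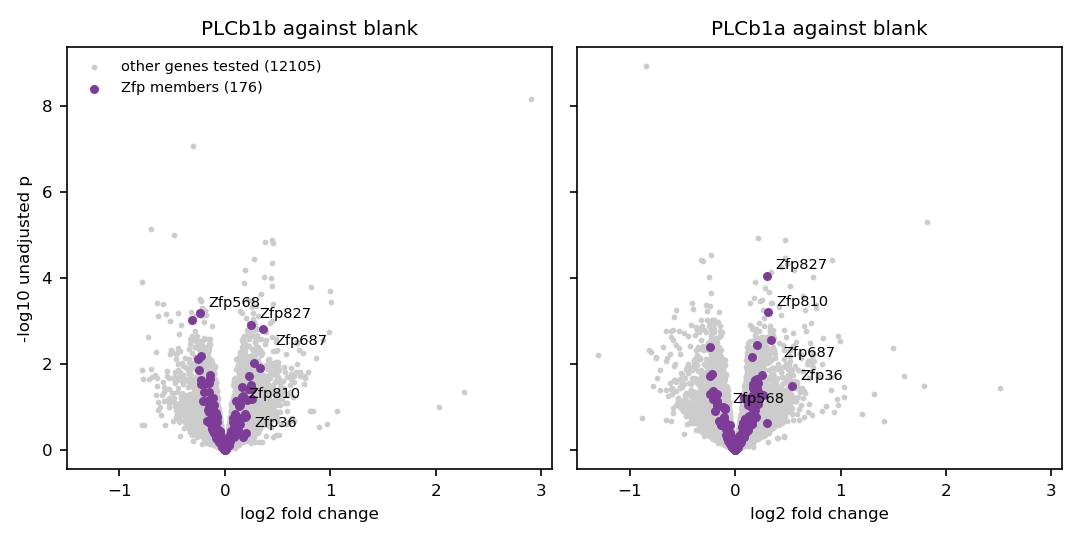
Log2 fold change (horizontal) and -log10 of the unadjusted p (vertical) of the 176 members in purple over the other 12105 genes tested in gray, for PLCb1b and PLCb1a against blank. Zfp827 is the highest member in the PLCb1a panel, and Zfp568 in the PLCb1b panel.

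Zfp810, a KRAB gene, had 4.35, 4.67 and 5.21 CPM as lowest, median and highest blank heart and 5.22, 5.84 and 6.38 CPM in PLCb1a hearts. The groups touched at 5.21 and 5.22 CPM without overlap, and the log2 fold change was 0.31 (SE 0.08, FDR 0.187 from edgeR). Zfp955a, also a KRAB gene, ran from 8.03 to 10.7 CPM in blank hearts (median 8.34) and from 6.48 to 7.81 CPM in PLCb1a hearts (median 7.55). All PLCb1a hearts were lower, with a log2 fold change of -0.24 (SE 0.08, FDR 0.305 from edgeR), whereas its value in PLCb1b hearts was 0.00 (SE 0.08). Zfp687 had a median of 4.95 CPM in PLCb1a hearts and a log2 fold change of 0.34 (SE 0.11, FDR 0.287 from edgeR), beside 0.36 in PLCb1b hearts against the same blank hearts. Zfp780b stood at -0.22 and -0.25 in PLCb1a and PLCb1b hearts, and Zfp142 at -0.24 and -0.20, none of which was called.

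**Figure D3:**
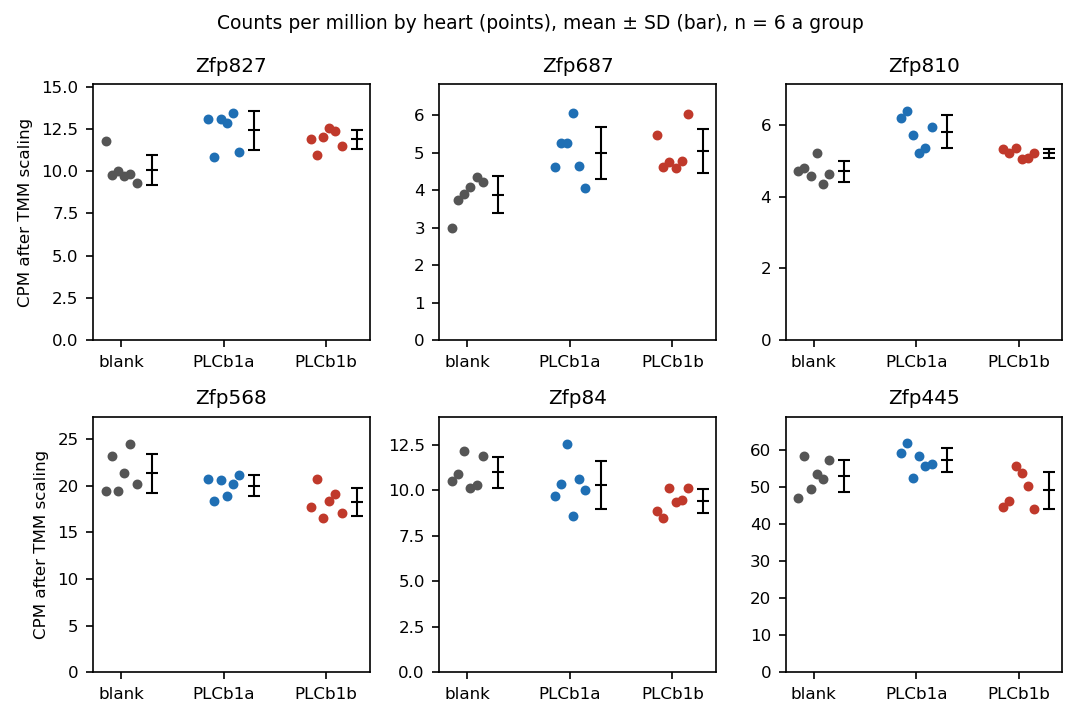
CPM by heart (points) and mean ± SD (bar) of 6 members in 6 blank, 6 PLCb1a and 6 PLCb1b hearts, with each axis from 0. Zfp687 and Zfp84 separate PLCb1b from blank hearts, Zfp810 separates PLCb1a from blank hearts, and Zfp445 is lowest in PLCb1b hearts with overlap.

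PLCb1b against PLCb1a hearts sets the splice variants side by side. Plcb1 itself ran from 23.2 to 70.0 CPM in PLCb1b hearts and from 17.8 to 29.25 CPM in PLCb1a hearts. Variant and Plcb1 level thus differ together between these groups and cannot be told apart here. No member was called, and 0 of all genes tested were (0%) in edgeR's quasi-likelihood test. DESeq2 called 1 of all genes and edgeR's exact test 2, none of them members. At an unadjusted p below 0.05 there were 12 members, 3 higher and 9 lower in PLCb1b hearts. That is 6.82% beside 4.42% of all genes (2.24% higher and 2.18% lower). Among genes with a mean count of 50 or more it was 4.39%. The 12 members became 7 with DESeq2 and 14 without robust estimation of the spread. The median log2 fold change of the members was -0.031, beside 0.00088 for all genes, and 107 of 176 members were negative. By class it was -0.012 over KRAB members and -0.047 over the others. The ranges of the groups overlapped for all 176 members, where they did not for 0.179% of all genes.

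Zfp445, a KRAB and SCAN protein that maintains genomic imprints together with Zfp57, had the lowest p of the members here. Its lowest, median and highest values were 52.3, 57.2 and 61.7 CPM in PLCb1a hearts and 43.9, 48.2 and 55.6 CPM in PLCb1b hearts, with 4 of 6 PLCb1b hearts below every PLCb1a heart. Blank hearts, at 46.8, 52.9 and 58.2 CPM, lay between and overlapped both. The log2 fold change was -0.22 for PLCb1b against PLCb1a (SE 0.06, unadjusted p = 0.00059, FDR 0.801 from edgeR), -0.11 for PLCb1b against blank (SE 0.06) and 0.11 for PLCb1a against blank (SE 0.06). Zfp57, below the count limit with a mean count of 10.2, had a log2 fold change of -0.70 in PLCb1b against blank hearts (SE 0.27, FDR 0.560 from edgeR). Of 25 imprinted genes tested, 0 were called in any comparison by edgeR's quasi-likelihood test. At an unadjusted p below 0.05, 1 was higher and 1 lower in PLCb1b against blank hearts (8%, beside 7.41% of all genes). In PLCb1a hearts 1 was higher and 2 were lower (12%, beside 8.58%). Between PLCb1b and PLCb1a hearts there were 0 (0%, beside 4.42% of all genes). The median log2 fold change of the imprinted genes was 0.031 in PLCb1b and 0.062 in PLCb1a hearts against blank. It was 0.0017 in PLCb1b against PLCb1a hearts. Zfp948 had the largest difference of any member, -0.43 (SE 0.13, FDR 0.971 from edgeR), and its highest heart was PLCb1a heart 7 at 8.62 CPM. Without that heart the value was -0.30. Zfp790 stood at -0.25, and on the higher side Zfp955a stood at 0.25, Zfp775 at 0.29 and Zfp518a at 0.15.

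KRAB proteins act through a shared set of co-repressors, whose own levels were read from a list of Trim28, Setdb1 and partners. Of 28 such genes tested, 0 were called in any of the 4 comparisons by edgeR's quasi-likelihood test. At an unadjusted p below 0.05, 1 was higher in PLCb1b against blank hearts (3.57%, beside 7.41% of all genes tested). In PLCb1a hearts 1 was higher and 1 lower (7.14%, beside 8.58%). The ranges of PLCb1b and blank hearts overlapped for all 28. Those of PLCb1a and blank hearts did not overlap for 1, Chd4 (3.57%, beside 0.594% of all genes). Its lowest PLCb1a heart was at 82.98 CPM and its highest blank heart at 82.42 CPM. The median log2 fold change of the 28 genes was 0.0021 in PLCb1b and -0.015 in PLCb1a hearts against blank. Trim28 itself stood at 0.08 and 0.10 (SE 0.06 for both), and Setdb1 at -0.09 and -0.05. KRAB members had medians of -0.0014 and 0.0034, and members without a KRAB core 0.0046 and 0.029, in the same 2 comparisons. Zfp809, the KRAB protein that silences murine leukemia proviruses, stood at 0.02 and 0.08 (SE 0.10 for both).

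Zfp36, the CCCH member, was among the most variable members. It had 4.36, 6.87 and 8.14 CPM as lowest, median and highest blank heart, 5.72, 8.53 and 16.7 CPM in PLCb1a hearts and 6.52, 7.75 and 9.10 CPM in PLCb1b hearts. The groups overlapped, and the highest value was that of PLCb1a heart 7. The log2 fold change was 0.54 in PLCb1a hearts (SE 0.23, FDR 0.521 from edgeR), the largest of any member against blank, and 0.28 without PLCb1a heart 7. In PLCb1b hearts it was 0.20 (SE 0.24). Its relatives Zfp36l1 and Zfp36l2 stood at -0.00 and 0.14 in PLCb1a hearts. Zfp36 is itself an immediate early gene, and 23 other immediate early genes (among them Fos, Egr1, Ier2 and Junb) were summed beside it. Their sum was 187 to 292 CPM in blank, 248 to 577 CPM in PLCb1a and 230 to 408 CPM in PLCb1b hearts, and it was highest in PLCb1a heart 7, then in PLCb1b hearts 16 and 6 and PLCb1a heart 9. These 4 hearts were also the 4 highest in Zfp36. Of the 23 genes, 0 were called against blank in either PLC group by edgeR's quasi-likelihood test. At an unadjusted p below 0.05 there were 2 in PLCb1b hearts, both lower (8.7%, beside 7.41% of all genes tested). In PLCb1a hearts there were 7, 5 higher and 2 lower (30.4%, beside 8.58% of all genes). The median log2 fold change was 0.32 in PLCb1b and 0.50 in PLCb1a hearts, and how tissue handling bears on these levels was not tested.

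**Figure D4:**
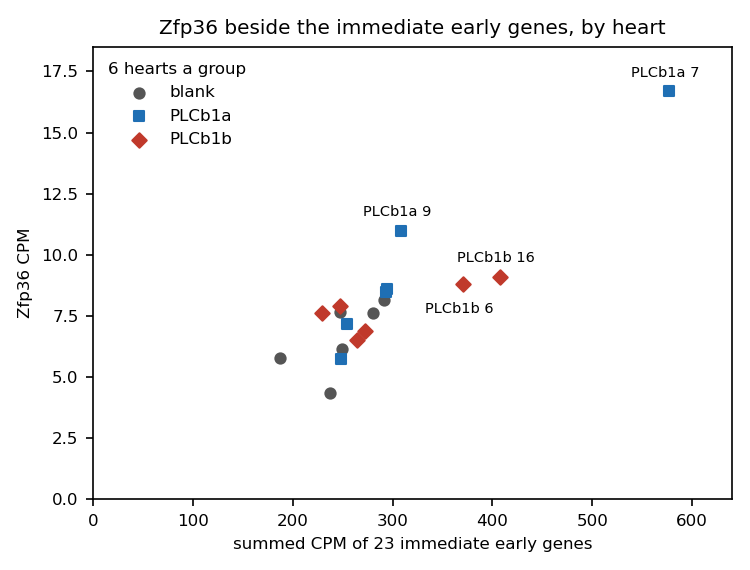
Zfp36 CPM (vertical) against the summed CPM of 23 immediate early genes (horizontal) in each of 18 hearts, colored by group, both axes from 0. PLCb1a heart 7 is highest on both axes at 16.7 and 577 CPM.

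The bases before the Zfp36 start site are printed since its highest hearts were also those highest in immediate early genes (RefSeq, GRCm38.p6, chr7:28379229-28379478, minus strand, 250 bases, read toward the start). Capitals mark a GGGCGG box, here on the opposite strand, and a CArG box, the element bound by serum response factor, which share base -58 counted from the start.
Zfp36: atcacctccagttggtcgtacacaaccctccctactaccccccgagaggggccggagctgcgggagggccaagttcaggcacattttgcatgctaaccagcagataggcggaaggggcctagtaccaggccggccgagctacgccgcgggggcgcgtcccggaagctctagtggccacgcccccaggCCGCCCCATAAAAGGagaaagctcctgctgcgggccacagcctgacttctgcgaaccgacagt
Searched on both strands from 250 bases before to 50 after the start, the CArG box stood in 1.57% of 27025 promoters, in 4 of the 144 member promoters that could be matched by name and in 0 of 19 immediate early promoters. GGGCGG stood in 53.5% of member promoters and in 65.3% of the 9072 promoters matched among genes tested. Promoters of KRAB members had a median of 11.5 CpG and those of the other members 21.5, beside 21 for the genes tested.

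KRAB genes multiplied by tandem duplication, and many stand side by side. Joining members at most 500 kb apart put 82 members into 22 clusters, which held 62 of the 84 KRAB members and 20 of the 92 others. The 2 largest lie on chromosome 17 of mm10, with 12 members (chr17:21008941-23564226) and 9 members (chr17:32765497-33394637). Their median log2 fold change was 0.031 and -0.0058 in PLCb1b against blank hearts, and 0.039 and 0.021 in PLCb1a hearts. A cluster of 8 members on chromosome 7 (chr7:29768552-30169727) holds Zfp84, Zfp790, Zfp27, Zfp74, Zfp568, Zfp14, Zfp260 and Zfp146. It includes the 3 members of lowest p on the lower side in PLCb1b hearts, whereas Zfp27 stood at 0.02, Zfp14 at 0.01 and Zfp74 at 0.20. The median of the 8 was -0.093 in PLCb1b and -0.021 in PLCb1a hearts against blank. Zfp260, a cofactor of Gata4 in the cardiac response to alpha-adrenergic agonists, is one of them, with 6.90 ± 0.461 FPKM in blank, 6.72 ± 0.172 in PLCb1a and 6.46 ± 0.414 in PLCb1b hearts (SD, n = 6) and a log2 fold change of -0.07 in PLCb1b hearts (SE 0.06). This cluster was singled out after its values were seen, and no test was made of it. The 94 members outside clusters had medians of 0.0046 and 0.023.

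**Figure D5:**
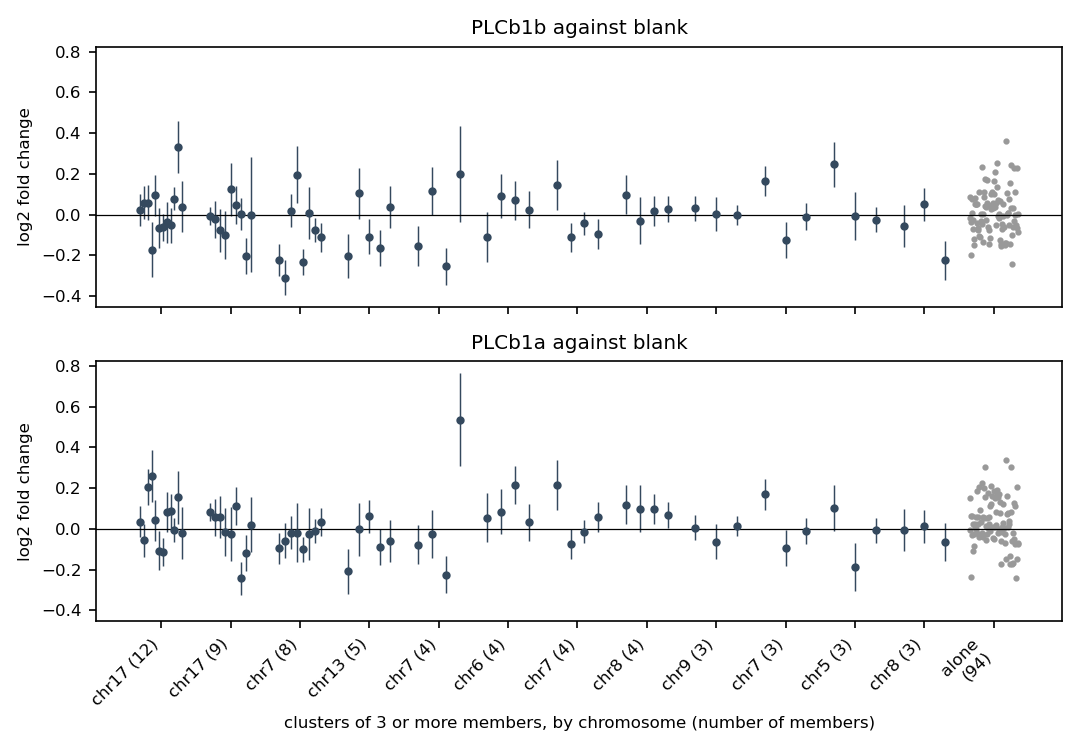
Log2 fold change ± standard error of the members of each cluster of 3 or more, named by chromosome and ordered by position within it, and of the 94 members alone in gray without error, for PLCb1b (top) and PLCb1a (bottom) against blank. Zfp84, Zfp790 and Zfp568 in the chr7 cluster of 8 lie between -0.22 and -0.31 in the top panel.

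Among further members of known role, none was called in any comparison. Zfp148, a GC-box factor, stood at 0.01 and -0.03 in PLCb1b and PLCb1a hearts (SE 0.05 for both). Zfp106 stood at -0.02 and -0.01 (SE 0.04 for both). Zfp143, which binds promoters and chromatin loops, stood at 0.08 and 0.07. Zfp207 stood at -0.15 (unadjusted p = 0.0269, FDR 0.601 from edgeR) and -0.03, with PLCb1b hearts from 36.2 to 43.8 CPM and blank hearts from 38.2 to 53.0. Zfp598 stood at 0.13 and 0.17, and Zfp410, the activator of Chd4, at 0.05 and 0.18. Zfp281, a regulator of pluripotent cells, stood at -0.11 and 0.09 and differed by -0.20 between PLCb1b and PLCb1a hearts (SE 0.07, FDR 0.971 from edgeR).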

How the data were processed

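The sources name TopHat2 2.0.10 with Bowtie2, mm10, HTSeq in its union mode with strand, and Cufflinks 2.1 (submitters' notes). The deposited counts are the authors' whole-number HTSeq counts per gene with no normalization. The deposited FPKM values are the authors' length-scaled values, and the program that made them is not tied to the table in the sources used here. FPKM served for levels between genes, and CPM and tests came from counts.

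Counts of 12281 genes that passed filterByExpr (minimum count 10, minimum total 15, smallest group 6) were scaled by TMM and fitted in 1 model of 3 groups of 6 hearts with edgeR 4.0.16 under R 4.3.3 (quasi-likelihood F test, Benjamini-Hochberg over all genes tested). The spread was estimated with edgeR's robust option. It was chosen after fits with and without it had been seen, to follow earlier processing of these data, and it decides the call of Zfp827 in PLCb1a hearts. Alternatives were DESeq2 1.42.0, edgeR's exact test, other scalings and filters, limma 3.58.1 on log2(FPKM + 0.1) or log2(FPKM + 1), other count limits and each heart left out. Programs were tested on simulated data.

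The members, gene lists and tests were chosen with earlier results of these data known. Members were named by a rule: lowest p in each direction, highest level, highest and lowest spread, nearest the count limit, and a list of known roles. Exons and positions came from the deposited mm10 annotation. Protein classes came from GENCODE vM21 transcripts (GRCm38) translated with Biopython 1.88, since no protein table was used. They rest on C-x(2,4)-C-x(12)-H-x(3,5)-H for fingers, at least 7 of 10 KRAB positions and at least 9 of 12 SCAN positions. GENCODE names 4 members otherwise (Zfp191 is Zfp24, Zfp259 is Zpr1, Zfp607 is Zfp607a and Zfp828 is Champ1). Depth limits each value to counting error plus the spread between hearts, and the common biological coefficient of variation was 0.0723. Figures were drawn with matplotlib 3.10.9.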

Additional observations from a re-analysis of the deposited data

Results flagged for a closer look

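In 5 of 168 groups of 6 hearts, 1 heart stood apart from the other 5 by Dixon's criterion (gap over range above 0.625), where chance gives about 1 in 20. Zfp827 was at 11.8 CPM in blank heart 26 and at 9.30 to 10.02 CPM in the other blank hearts, and without that heart its log2 fold change in PLCb1a hearts was 0.35 (FDR 0.0550 from edgeR's quasi-likelihood test). Zfp518a was at 11 CPM in PLCb1b heart 10 and at 12.9 to 13.8 CPM in the others of its group. Zfp207 and Zfp449 were both high in blank heart 30, at 53.0 CPM beside 38.2 to 43.4 and at 5.02 CPM beside 2.60 to 3.41. Zfp598 was at 8.32 CPM in PLCb1a heart 9 and at 6.97 to 7.35 CPM in the others of that group.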

How the results depend on the processing

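The 4 median log2 fold changes of the members each moved by less than the spread between hearts (SD 0.026) under every alternative. That SD is of single hearts, not of a difference between groups. The medians against blank were themselves smaller than it, so this does not show that their sign held. Fold changes were refitted under each alternative for Zfp36, Zfp445, Zfp667 and the members of lowest p in each comparison, and those kept their direction. Most were chosen for a low p in the same hearts, so a kept direction was likely from the choice alone. Members with values near 0, such as Zfp106, were not followed in this way, and no direction is given for them. Between PLCb1b and blank and between PLCb1b and PLCb1a hearts, 0 members were called under any alternative, leave-one-out fits included. In PLCb1a against blank hearts the count of 1 became 0 at an FDR below 0.05, with only the groups compared, with limma in all 3 forms and without robust estimation (added after seeing the data). It became 2 with a mean count of 25 or more (Zfp667, with an FDR of 0.0666, beside Zfp827) and 2 with edgeR's exact test (Zfp810 and Zfp827). With each heart left out it ran from 0 to 1. For both PLC groups against blank the count of 1 became 2 with edgeR's exact test (Zfp687 and Zfp827), and 0 with limma in all 3 forms. With each heart left out it ran from 0 to 2, with 2 without PLCb1a heart 21 (Zfp687 and Zfp827). DESeq2 gave no adjusted p for 95 members in PLCb1a against blank hearts, which are not counted as lost. Mean counts of 50.2 to 9583 per member went with a median standard error of 0.088 on the log2 scale in PLCb1b against blank hearts. The smallest change that could have been called was not estimated, and differences well above that error, such as -0.23 for Zfp568, were not called. No paired analysis was possible because the groups share no heart numbers. Blank hearts are numbered 26 to 36 and PLC hearts 4 to 21. Whatever the numbering follows, which the labels do not say, cannot be told apart from blank against PLC.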

Other observations

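Among Zfp genes below the count limit, 131 were tested. Zfp667, with a mean count of 42.1, was called in PLCb1a against blank hearts in edgeR's quasi-likelihood test at a log2 fold change of 0.56 (SE 0.12, FDR 0.0666), and it was the only one called in any of the 4 comparisons. Its lowest, median and highest values were 1.57, 1.83 and 2.14 CPM in blank hearts and 2.50, 2.71 and 2.94 CPM in PLCb1a hearts, and all 6 PLCb1a hearts were above every blank heart. In PLCb1b hearts the same values were 1.96, 2.29 and 2.54 CPM, with a log2 fold change of 0.29 (SE 0.13, FDR 0.641 from edgeR). With single hearts left out, the call held in 9 of 18 fits and was lost without blank heart 26, 32, 33, 34 or 36 or PLCb1a heart 7, 11, 14 or 21 (highest FDR 0.193). At an unadjusted p below 0.05 there were 7 of the 131 genes in PLCb1b and 5 in PLCb1a hearts against blank. That is 5.34% and 3.82%, beside 7.41% and 8.58% of all genes tested.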
